A study of Mus musculus with 6 samples.

Results

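The genes described here sense microbes inside and at the surface of cells, or carry the signal of those sensors: Toll-like receptors and their adaptors, NOD-like receptors, the NAIP family, sensors of nucleic acid, and the caspases and gasdermins of the inflammasome. They were taken from the count table by gene symbol, which gave 61 of its 21534 rows. The RNA came from organoids of the ileum of wild-type C57Bl/6 mice, which are closed epithelial cultures grown without immune or connective tissue cells. One group of 3 libraries received 10 µM retinoic acid (RA), the active form of vitamin A, for 24 hours, and the other 3 libraries received vehicle (DMSO) for the same time. Before that, all 6 had spent 96 hours with 10 µM CHIR99021, which blocks the kinase GSK3 and so switches on Wnt signalling, a state that favours stem cells. Whether replicate libraries stem from different mice or cultures is not stated, and p-values therefore reflect only the spread among these libraries, which may be technical.

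Epithelial cells of the small intestine meet bacteria and their products at a thin barrier, and they carry several layers of sensors. Toll-like receptors bind bacterial or viral molecules at the cell surface or in endosomes and signal through MYD88 or TRIF (Ticam1) to the transcription factor NF-κB. NAIP proteins bind flagellin or parts of the bacterial type III secretion system in the cytosol and assemble with NLRC4 into an inflammasome, which activates caspase-1. In infected intestinal epithelium this inflammasome is known to drive the expulsion of the affected cell.

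Of the 61 genes, 37 had enough reads to be tested, and 7 of these were higher and 2 lower with RA. A gene is called here when its p-value from the edgeR quasi-likelihood test, adjusted over all 13700 rows tested, is under 0.05. The 7 higher genes are 18.9% of those tested, where 5.37% of all tested rows were called higher. The 2 lower genes are 5.41% of those tested, where 4.09% of all tested rows were called lower. Together the 9 are 24.3% of the tested genes, where 9.46% of all tested rows were called. The other 28 tested genes were not called. The median log2 fold change (RA over vehicle) of the 37 was 0.11, against −0.01 over all tested rows, and 21 of the 37 were positive. That median was 0.06 without RA library 1 or vehicle library 2, and 0.07 without vehicle library 1. The RA and vehicle libraries did not overlap in 14 of the 37 genes (37.8%), which compares with 25.5% of all tested rows. The unadjusted p of the edgeR test was under 0.05 in 17 of the 37 (45.9%), against 21.6% of all tested rows.

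**Figure D1:**
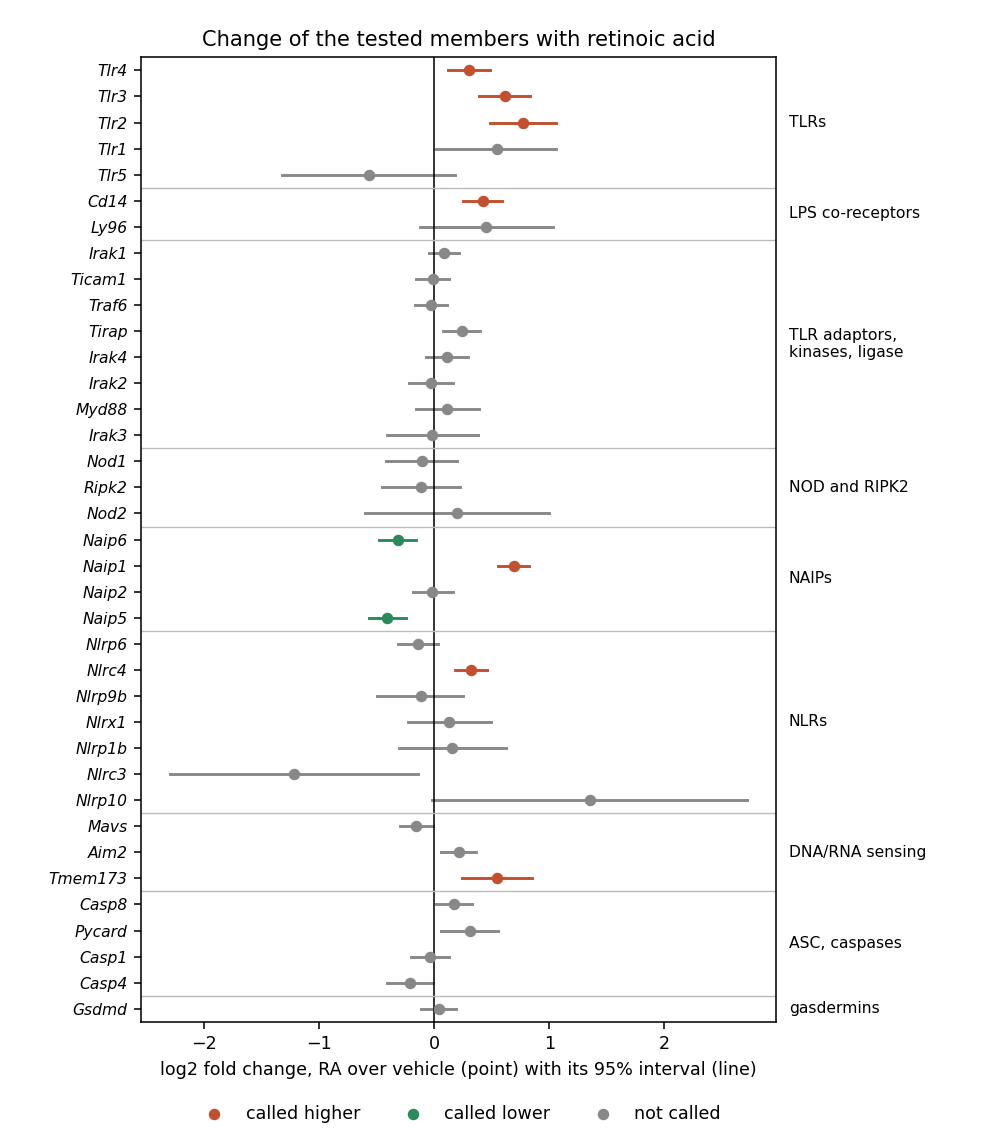
Change of the 37 tested genes with RA, grouped by role. Each point is the log2 fold change of RA over vehicle and each line its 95% interval. Colours mark the 7 genes called higher, the 2 called lower and the 28 not called. Naip1 has the narrow interval from 0.55 to 0.82, and the calls in the other direction are Naip5 and Naip6.

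The libraries held between 14919144 and 21833846 counted reads. A principal component with 44.8% of the variance separated the treatments, and on a second, with 20%, both libraries numbered 3 stood away from the other 4. The 8 epithelial markers summed to between 11500 and 12300 CPM in RA libraries and between 11500 and 12200 CPM in vehicle libraries, where CPM are reads per 1000000 of the scaled library size. Of 11 leukocyte markers, 7 had under 10 reads over all libraries, and Ptprc (CD45), which defines leukocytes, had 0 reads with RA and 2 with vehicle. The list summed to 29.1 to 34.6 CPM with RA and 25.0 to 29.6 CPM with vehicle, mostly from Csf1r, and Cd68 was its called member (log2 fold change 0.75, SE 0.19, adjusted p = 0.0216). Markers of stem cells summed to 1140 to 1180 CPM with RA and 1780 to 1810 CPM with vehicle, and those of cycling cells to 408 to 470 CPM with RA and 589 to 652 CPM with vehicle. The M cell markers, which belong to the epithelium over lymphoid follicles, summed to 119 to 120 CPM with RA and 93.1 to 103 CPM with vehicle. In that list Tnfaip2 was called higher, with means of 54.2 CPM with RA and 28.0 CPM with vehicle. Ccl20 was called lower, with means of 1.16 CPM with RA and 5.26 CPM with vehicle (log2 fold change −2.12). The other 3 tested were not called, and Gp2 (2 reads) and Sox8 (21 reads) were not tested. Paneth cell markers summed to 4920 to 5220 CPM with RA and 5410 to 5840 CPM with vehicle, with Mmp7 called higher and Ang4 and Pnliprp2 lower, and those of fibroblasts, muscle and endothelium to 4.55 to 5.22 CPM with RA and 6.70 to 7.82 CPM with vehicle. The sums of goblet cell and enterocyte markers overlapped between the groups, while single genes of both lists were called in each direction, among them Clca3 (7.55-fold) and Fabp1 (26.3-fold) on the higher side. The part of these shifts in the changes described next was not tested. In bulk RNA, fewer cells of a type and less RNA per cell cannot be told apart.

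Among the Toll-like receptors, Tlr2, Tlr3 and Tlr4 were higher with RA. They were 3 of the 5 tested of 11 rows, where 5.37% of all tested rows were called higher. The median log2 fold change over the 5 was 0.54, against −0.01 over all tested rows. Tlr2, which binds bacterial lipopeptides at the cell surface together with TLR1 or TLR6, had 11.4, 12.1 and 12.7 CPM in RA libraries 1, 2 and 3, against 7.80, 6.40 and 6.98 CPM in vehicle libraries 1, 2 and 3. All 3 RA libraries lay above all 3 vehicle libraries. The means were 12.0 ± 0.647 CPM with RA and 7.06 ± 0.707 CPM with vehicle (SD, n = 3 each), a 1.70-fold difference (log2 fold change 0.77, SE 0.14, adjusted p = 0.00238). Values given as 3 numbers follow this order of libraries throughout.

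Tlr3, the endosomal receptor for double-stranded RNA, had 50.3, 47.3 and 45.2 CPM with RA, against 36.4, 29.8 and 27.0 CPM with vehicle. The groups were well apart, and the highest vehicle library was library 1. The fold was 1.53 (log2 fold change 0.61, SE 0.10, adjusted p = 0.00151). In the reference annotation 7.32% of its exonic bases lie opposite exons of Gm45542 on the other strand, and whether counting used strand is not stated, so reads of the 2 genes may be mixed there.

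Tlr4, the receptor for lipopolysaccharide of Gram-negative bacteria, had 45.9, 39.6 and 42.0 CPM with RA, against 33.6, 36.6 and 33.8 CPM with vehicle. The groups did not overlap, but the gap between the closest libraries was small. Its log2 fold change was 0.30 (SE 0.08, adjusted p = 0.0391), the largest adjusted p of the 9 calls. The call was lost without RA library 1 (adjusted p = 0.217), vehicle library 1 (0.135), vehicle library 2 (0.0613) or vehicle library 3 (0.108).

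The other tested receptors of the family were not called. Tlr1, the partner of TLR2, had 4.03, 3.66 and 3.18 CPM with RA, against 2.54, 3.02 and 1.91 CPM with vehicle. Its libraries did not overlap, and its log2 fold change was 0.54 (SE 0.24, adjusted p = 0.217). Of its transcript's 50-base stretches, 15.4% also occur in transcripts of other genes, and its near copy Tlr6 had 13 reads in all. Tlr5, the cell-surface receptor for flagellin, had 1.03, 1.42 and 0.859 CPM with RA, against 1.16, 2.07 and 1.65 CPM with vehicle. These overlap, and the 95% interval of its log2 fold change ran from −1.33 to 0.18. Tlr9, a receptor for unmethylated bacterial DNA, had 1 read in the RA libraries and 11 in the vehicle libraries, and it was not tested. Tlr7, Tlr11, Tlr12 and Tlr13 had under 10 reads each over the 6 libraries.

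The lipopolysaccharide co-receptors held 1 further call. Cd14, which hands lipopolysaccharide to TLR4, had 50.2, 45.1 and 47.6 CPM with RA, against 36.9, 35.2 and 34.7 CPM with vehicle. The 2 groups were clearly separate, with means of 47.7 ± 2.55 CPM with RA and 35.6 ± 1.15 CPM with vehicle (SD, n = 3 each). The fold was 1.34 (log2 fold change 0.42, SE 0.08, adjusted p = 0.00307). Ly96 encodes MD-2, the part of the TLR4 complex that binds the lipid. It had 3.47, 5.29 and 2.78 CPM with RA, against 2.37, 2.61 and 3.36 CPM with vehicle. These overlap, and its log2 fold change of 0.45 (SE 0.27, adjusted p = 0.374) had an interval from −0.13 to 1.03. Lbp, the lipopolysaccharide binding protein of plasma, had 20 reads in the RA libraries and 21 in the vehicle libraries and was not tested.

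**Figure D2:**
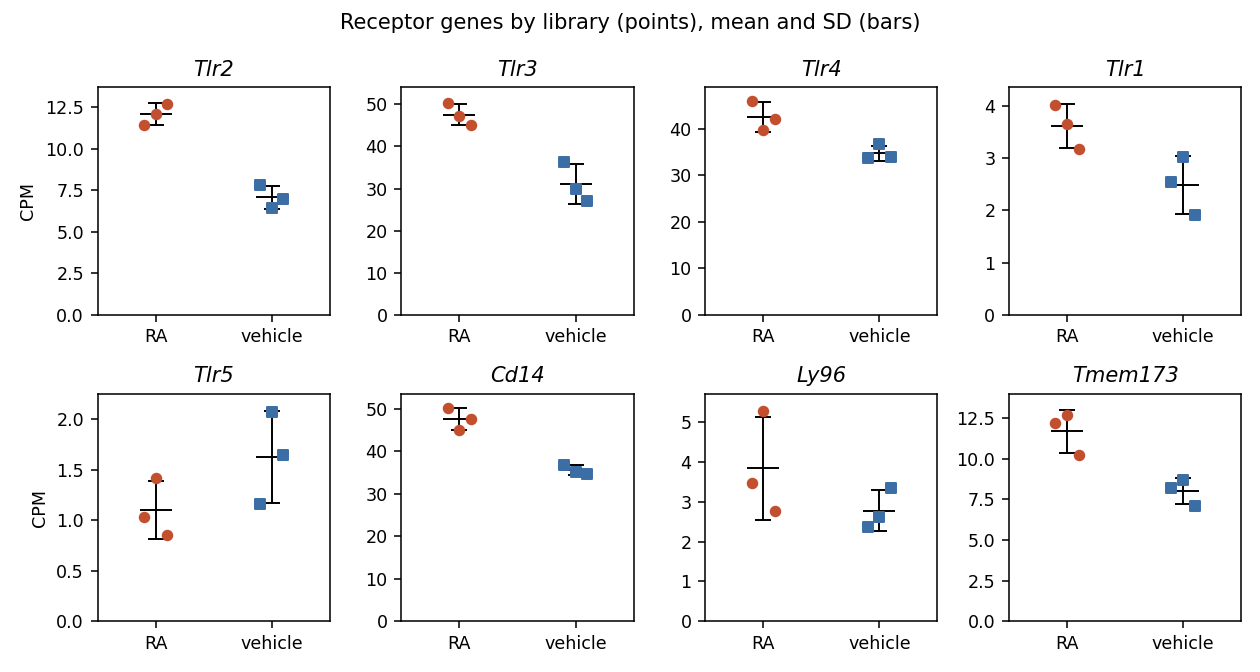
CPM of 8 sensor genes in each library. Points are libraries, with RA left of vehicle, and bars give the mean and SD of 3 libraries. Tlr2, Tlr3, Tlr4, Cd14 and Tmem173 were called higher with RA, and Tlr1, Tlr5 and Ly96 were not called.

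None of the 8 tested adaptors and kinases downstream of the Toll-like receptors was called by edgeR, where 9.46% of all tested rows were called. Their median log2 fold change was 0.03. In this group 1 gene (12.5%) had an unadjusted p under 0.05, against 21.6% of all tested rows. That gene was Tirap, the adaptor that brings MYD88 to TLR2 and TLR4. It had 68.2, 60.5 and 60.6 CPM with RA, against 56.1, 50.8 and 53.8 CPM with vehicle. Its libraries did not overlap, and its log2 fold change was 0.24 (SE 0.08, adjusted p = 0.0694). Of its exonic bases, 9.84% lie opposite exons of Srpr and Gm39318.

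Myd88, the adaptor shared by most Toll-like receptors, had 40.4, 42.7 and 55.0 CPM with RA, against 39.5, 37.3 and 51.1 CPM with vehicle. Library 3 was the highest of its group in both treatments. The log2 fold change was 0.11 with an interval from −0.16 to 0.39. Irak1, a kinase recruited by MYD88, had 131, 124 and 127 CPM with RA, against 125, 121 and 115 CPM with vehicle, and its interval ran from −0.05 to 0.21. Traf6, the ubiquitin ligase that follows, had 80.3, 73.9 and 78.0 CPM with RA, against 81.8, 76.0 and 79.9 CPM with vehicle. Its interval, from −0.17 to 0.11, held only small differences. Irak2, Irak3, Irak4 and Ticam1 had log2 fold changes between −0.03 and 0.11, and Ticam2 had under 10 reads.

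The cytosolic receptors for bacterial cell wall fragments were not called, and neither was their kinase. Nod1 had 9.66, 9.49 and 7.48 CPM with RA, against 9.48, 10.2 and 9.08 CPM with vehicle (log2 fold change −0.11, interval −0.42 to 0.20). Nod2 had 2.34, 1.08 and 1.26 CPM with RA, against 0.983, 1.42 and 1.78 CPM with vehicle (log2 fold change 0.20, interval −0.60 to 1.00). Ripk2, the kinase that both receptors recruit, had 10.0, 7.25 and 7.48 CPM with RA, against 9.02, 8.35 and 9.81 CPM with vehicle (log2 fold change −0.12, interval −0.46 to 0.22). All 3 overlapped between the groups. The wide interval of Nod2 goes with its 159 reads over the 6 libraries.

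The 4 NAIP genes changed in both directions. Naip1 was higher with RA, Naip5 and Naip6 were lower, and Naip2 was not called. In mice NAIP1 binds the needle protein and NAIP2 the inner rod protein of type III secretion systems, while NAIP5 and NAIP6 bind flagellin. The genes lie together on chromosome 13, where the table (mm10) places Naip2 at 100144063 to 100202092, Naip5 at 100211739 to 100246323, Naip6 at 100281121 to 100317674 and Naip1 at 100407770 to 100446406, all on the minus strand.

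Naip1 (ENSMUSG00000021640) had 301, 268 and 276 CPM with RA, against 171, 170 and 185 CPM with vehicle. The lowest RA library was far above the highest vehicle library. The means were 282 ± 17.1 CPM with RA and 175 ± 8.66 CPM with vehicle (SD, n = 3 each), a 1.61-fold difference (log2 fold change 0.69, SE 0.06, adjusted p = 7.43e-06).

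Naip5 had 82.1, 84.1 and 73.9 CPM with RA, against 111, 111 and 97.1 CPM with vehicle. Every RA library was below every vehicle library, and library 3 was the lowest of its group in both treatments. The fold was 0.751 (log2 fold change −0.41, SE 0.07, adjusted p = 0.00270). Naip6 had 221, 216 and 182 CPM with RA, against 269, 257 and 244 CPM with vehicle. Here too the groups did not overlap, and the fold was 0.803 (log2 fold change −0.32, SE 0.07, adjusted p = 0.0141). The call of Naip6 was lost without vehicle library 1 (adjusted p = 0.0684) or vehicle library 2 (0.0580).

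Naip2 had 123, 121 and 109 CPM with RA, against 135, 109 and 113 CPM with vehicle. These overlap, and the interval of its log2 fold change ran from −0.19 to 0.16. Reads of the 4 genes together came to 686 ± 43.6 CPM with RA and 657 ± 24.7 CPM with vehicle, so the groups overlapped in the sum while its makeup differed. Naip1 took 41.4, 38.9 and 43.1% of the sum in RA libraries, against 24.9, 26.2 and 28.9% in vehicle libraries. Naip5 took 11.7 ± 0.477% with RA and 16.2 ± 0.978% with vehicle, and Naip6 took 30.0 ± 1.52% with RA and 39.1 ± 0.797% with vehicle (SD, n = 3 each). The ratio of Naip1 to Naip5 reads was 3.53 ± 0.298 with RA and 1.66 ± 0.217 with vehicle. These shares are not corrected for length. They were not tested separately, as they hold the same reads as the calls.

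**Figure D3:**
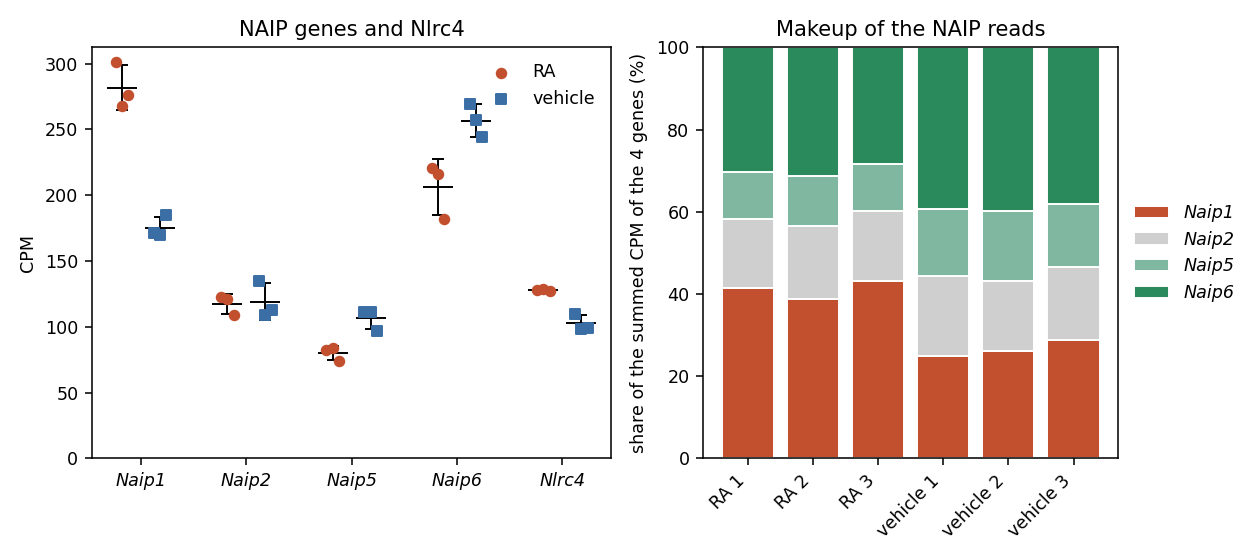
The NAIP genes and Nlrc4. On the left, points are the CPM of each library and bars the mean and SD of 3 libraries, with RA left of vehicle. On the right, each bar is 1 library divided by the share of the summed CPM of the 4 NAIP genes, and Naip1 takes 38.9 to 43.1% in RA libraries and 24.9 to 28.9% in vehicle libraries.

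The NAIP genes are close copies, so their reads can be hard to assign. Of all 50-base stretches in their annotated transcripts, 31.5% of those of Naip1, 19.1% of Naip2, 36.8% of Naip5 and 21.5% of Naip6 also occur in transcripts of other genes. For 100-base stretches the shares are 13.0% for Naip1, 4.44% for Naip2, 16.2% for Naip5 and 6.26% for Naip6. How the authors treated reads that match several places is not given in the sources used here, so the size of each NAIP change is uncertain.

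Nlrc4, which all NAIP proteins need to form an inflammasome, was also higher with RA. It had 128, 129 and 127 CPM with RA, against 110, 98.5 and 99.2 CPM with vehicle. The RA libraries lay within a narrow band above the vehicle libraries, with means of 128 ± 1.14 CPM with RA and 103 ± 6.35 CPM with vehicle (SD, n = 3 each). The fold was 1.25 (log2 fold change 0.32, SE 0.06, adjusted p = 0.00530). Of its 50-base stretches, 1.09% occur elsewhere.

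The promoters of the NAIP genes and of Nlrc4 are shown because Naip1 moved against Naip5 and Naip6 although the genes are neighbours and near copies. Each sequence runs from 250 bases before to 50 bases after the gene's RefSeq start (GRCm38.p6), 300 bases in all, 5′ to 3′ on the gene's own strand, which is the minus strand for all of them. Set against the gene ends in the table, the RefSeq start lies 6458 bases upstream for Naip1, 30 for Naip2 and 1013 for Naip5, and 1058 bases inside the gene for Naip6. In Naip1, Naip2 and Naip5 the capitals mark CCTTTAAGAGG, the longest run that the Naip1 and Naip2 windows share. In Naip6 and Nlrc4 they mark half-sites of the retinoic acid receptor element, searched on both strands as AGGTCA, its usual form, as AGTTCA, as well as GGGTCA, besides the form GGTTCA. No form contains another.
Naip1, chr13:100452815-100453114, minus strand: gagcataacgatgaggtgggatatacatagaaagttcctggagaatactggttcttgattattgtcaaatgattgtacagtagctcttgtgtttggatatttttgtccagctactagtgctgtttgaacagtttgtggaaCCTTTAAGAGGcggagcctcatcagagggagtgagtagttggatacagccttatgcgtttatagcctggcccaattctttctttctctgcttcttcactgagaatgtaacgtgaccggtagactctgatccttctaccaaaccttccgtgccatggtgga
Naip2, chr13:100202073-100202372, minus strand: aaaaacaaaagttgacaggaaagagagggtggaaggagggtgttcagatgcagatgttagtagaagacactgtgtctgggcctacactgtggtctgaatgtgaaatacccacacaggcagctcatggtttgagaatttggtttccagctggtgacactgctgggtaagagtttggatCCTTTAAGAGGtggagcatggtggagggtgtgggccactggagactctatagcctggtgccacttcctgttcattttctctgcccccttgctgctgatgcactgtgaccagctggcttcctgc
Naip5, chr13:100247287-100247586, minus strand: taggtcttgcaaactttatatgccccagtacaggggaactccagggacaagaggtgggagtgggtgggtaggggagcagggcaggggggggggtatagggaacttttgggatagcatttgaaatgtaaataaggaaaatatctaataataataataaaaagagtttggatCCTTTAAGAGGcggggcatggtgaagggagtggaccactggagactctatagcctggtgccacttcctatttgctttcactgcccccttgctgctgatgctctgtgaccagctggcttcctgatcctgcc
Naip6, chr13:100316567-100316866, minus strand: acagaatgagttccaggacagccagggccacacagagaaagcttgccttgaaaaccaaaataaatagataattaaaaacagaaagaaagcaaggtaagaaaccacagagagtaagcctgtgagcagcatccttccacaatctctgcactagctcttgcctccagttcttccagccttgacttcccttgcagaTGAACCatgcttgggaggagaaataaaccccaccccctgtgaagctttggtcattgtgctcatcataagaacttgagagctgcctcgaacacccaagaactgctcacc
Nlrc4, chr17:74459059-74459358, minus strand: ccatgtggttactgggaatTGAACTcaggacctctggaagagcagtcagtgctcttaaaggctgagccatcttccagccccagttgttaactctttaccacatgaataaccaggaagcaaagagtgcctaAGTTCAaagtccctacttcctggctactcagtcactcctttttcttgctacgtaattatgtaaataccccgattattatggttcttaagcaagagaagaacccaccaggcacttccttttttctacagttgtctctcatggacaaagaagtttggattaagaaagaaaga

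The marked run begins at base −110 from the start in Naip1, −73 in Naip2 and −80 in Naip5, and it is found in 0.0914% of 32817 RefSeq promoter windows on either strand. The Naip2 and Naip5 windows share a longer run of 34 bases, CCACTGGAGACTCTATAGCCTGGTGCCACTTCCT, near the start. The longest run that Naip6 shares with another NAIP window has 9 bases. By alignment, the Naip1 window is 52.0% identical to that of Naip5 and 49.3% to that of Naip6, while Naip2 and Naip5 are 61.4% identical. The windows of Naip5 and Naip6, both called lower, are 43.9% identical. The alignment allowed gaps, and unrelated windows were not aligned for comparison. Whether these identities exceed those of unrelated windows is therefore not known.

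None of the half-sites is in the Naip1, Naip2 or Naip5 window. Naip6 has GGTTCA on its opposite strand with the first base at −58, and Nlrc4 has AGTTCA on its opposite strand at −231 and on its own strand at −120. At least 1 half-site is present in 43.7% of all windows, GGTTCA in 10.4% and AGTTCA in 14.0%, so these matches are frequent. No match says only that these letters are not in this window.

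The promoters of Tlr2 and Tlr3 are shown because both genes were called and hold a match. The pairing of call and match here thus follows from how they were picked. Half-sites are also in windows of genes tested and not called, among them Tlr1, Tlr5, Aim2, Irak3, Irak4, Tirap and Nod1. The Tlr5 window holds AGGTCA, the form marked in Tlr2. The promoters of the called genes Tlr4, Cd14 and Tmem173 were not analysed here. In Tlr2 the capitals mark AGGTCA read on the opposite strand, with the first base at −15, which is present in 16.3% of all windows. In Tlr3 they mark GGGANTTTCC, a form of the NF-κB element searched on both strands, which begins at −211 and is present in 0.411% of all windows. Other forms of this element were not searched, so any in the Tlr2 or Tlr3 window are not marked. A match is a description of the letters and not evidence of binding.
Tlr2, chr3:83841559-83841858, minus strand: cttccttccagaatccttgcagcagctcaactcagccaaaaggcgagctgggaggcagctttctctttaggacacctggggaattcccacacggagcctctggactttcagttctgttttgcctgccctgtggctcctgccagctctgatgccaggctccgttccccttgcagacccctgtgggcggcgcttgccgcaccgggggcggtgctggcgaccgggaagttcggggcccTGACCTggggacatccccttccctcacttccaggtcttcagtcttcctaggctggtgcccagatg
Tlr3, chr8:45410331-45410630, minus strand: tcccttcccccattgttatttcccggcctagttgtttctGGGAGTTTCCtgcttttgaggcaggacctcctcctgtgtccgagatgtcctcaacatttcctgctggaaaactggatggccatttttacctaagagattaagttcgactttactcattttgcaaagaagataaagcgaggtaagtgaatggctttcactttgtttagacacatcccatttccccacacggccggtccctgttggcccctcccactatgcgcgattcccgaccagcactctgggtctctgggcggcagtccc

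Of the 20 other NLR genes, Nlrc4 included, 7 were tested and Nlrc4 was the 1 called (14.3%, against 9.46% of all tested rows). Nlrp6, a sensor that in the intestine is known for its role in goblet cell mucus and antiviral defence, had 326, 359 and 281 CPM with RA, against 327, 381 and 359 CPM with vehicle. These overlap, with a log2 fold change of −0.14 (SE 0.08, adjusted p = 0.355) and an interval from −0.32 to 0.03. Nlrx1, an NLR of mitochondria, had 8.81, 7.12 and 8.94 CPM with RA, against 6.18, 8.88 and 7.77 CPM with vehicle, and its interval ran from −0.23 to 0.49. Nlrp1b and Nlrp9b were not called, with log2 fold changes of 0.15 and −0.12.

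Nlrc3 and Nlrp10 had the largest fitted changes of the NLR genes and are named here after their values were seen. Nlrc3 had 5, 4 and 17 reads with RA, against 24, 18 and 12 reads with vehicle, and its log2 fold change of −1.22 had an SE of 0.50 (adjusted p = 0.170). Nlrp10 had 27, 28 and 7 reads with RA, against 9, 12 and 1 reads with vehicle (log2 fold change 1.35, SE 0.64, adjusted p = 0.240). In both genes RA library 3 stood apart from the other RA libraries, and the groups overlapped. Both were called without RA library 3. When library 3 of both groups was left out, Nlrc3 was called and Nlrp10 was not.

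The other 13 NLR genes were not tested. Nlrc5, a regulator of MHC class I genes, had 3, 3 and 2 reads with RA, against 5, 2 and 4 reads with vehicle. Nlrp2, Nlrp4f and Nlrp12 had between 12 and 18 reads over the 6 libraries. Nlrp1a, Nlrp3, Nlrp4a, Nlrp4b, Nlrp4c, Nlrp4g, Nlrp5, Nlrp9c and Nlrp14 had under 10 each. Nlrp3, the sensor of the best studied inflammasome of macrophages, is thus among the genes whose change was not detectable at this depth.

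Among the sensors and adaptors of cytosolic nucleic acid, Tmem173 was higher with RA. It encodes STING, which signals when DNA is present in the cytosol. It had 12.2, 12.7 and 10.2 CPM with RA, against 8.21, 8.71 and 7.11 CPM with vehicle. The groups did not overlap, and the fold was 1.46 (log2 fold change 0.54, SE 0.14, adjusted p = 0.0275). The call was lost without RA library 1 (adjusted p = 0.117), RA library 2 (0.101), vehicle library 1 (0.0738) or vehicle library 3 (0.0872).

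Aim2, the DNA sensor of an inflammasome, had 72.6, 70.3 and 66.2 CPM with RA, against 62.9, 60.2 and 58.0 CPM with vehicle. The libraries did not overlap, and its log2 fold change of 0.21 (SE 0.07) missed the threshold with an adjusted p = 0.0849. Mavs, the mitochondrial adaptor of the RNA helicases RIG-I and MDA5, had 72.7, 73.4 and 67.7 CPM with RA, against 78.6, 83.4 and 75.9 CPM with vehicle. It was the reverse case, with RA libraries below vehicle libraries and a log2 fold change of −0.16 (SE 0.07, adjusted p = 0.199).

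None of the 4 tested genes for the inflammasome adaptor and caspases was called by edgeR, where 9.46% of all tested rows were called. Of the 4, 3 (75.0%) had an unadjusted p under 0.05, against 21.6% of all tested rows. Pycard encodes ASC, which joins sensors to caspase-1. It had 105, 116 and 79.8 CPM with RA, against 84.9, 87.3 and 70.7 CPM with vehicle. Library 3 was the lowest of its group in both treatments, and the groups overlapped through RA library 3. Its log2 fold change was 0.31 (SE 0.12, adjusted p = 0.127), and it was called when library 3 of both groups was left out (adjusted p = 0.00183). In the reference annotation 12.8% of its exonic bases lie opposite exons of Gm45205. That gene model is longer than the span counted here, so the share within the counted gene is not known.

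Casp1, the protease that matures interleukin-18 and cleaves gasdermin D, had 66.1, 60.2 and 58.6 CPM with RA, against 62.4, 68.0 and 59.2 CPM with vehicle. These overlap, and the interval of its log2 fold change was −0.20 to 0.13. Casp4 (caspase-11), the cytosolic sensor of lipopolysaccharide in mice, had 25.6, 22.5 and 24.9 CPM with RA, against 30.2, 28.1 and 26.2 CPM with vehicle. Its RA libraries were all below its vehicle libraries, with a log2 fold change of −0.21 (SE 0.09, adjusted p = 0.212). Casp8, which the NAIP and NLRC4 inflammasome can also engage, had 163, 150 and 142 CPM with RA, against 145, 136 and 123 CPM with vehicle (log2 fold change 0.17, SE 0.07, adjusted p = 0.197). Casp12 had 26 reads in the RA libraries and 27 in the vehicle libraries and was not tested.

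Gsdmd, the pore-forming protein cut by caspase-1 and caspase-11, was not called. It had 152, 137 and 165 CPM with RA, against 144, 152 and 148 CPM with vehicle, with an interval from −0.12 to 0.19. Gsdmc2 had 1 read in the RA libraries and 2 in the vehicle libraries. Gsdmc4 had 3 reads in the RA libraries and 0 in the vehicle libraries. Neither was tested, and 51.3% of the 50-base stretches of Gsdmc2 and 39.0% of those of Gsdmc4 are shared with other genes, all of the same family.

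**Figure D4:**
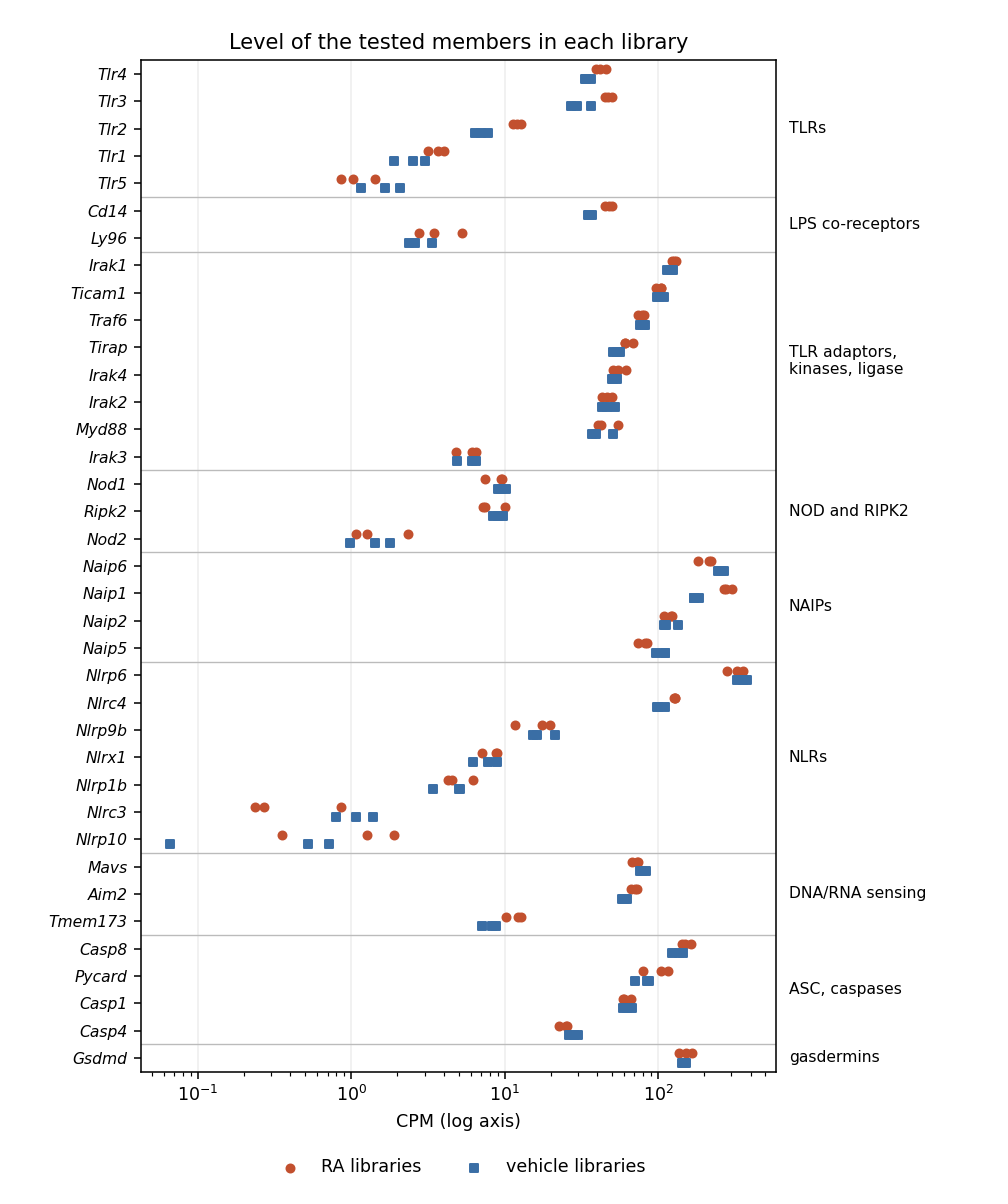
CPM of the 37 tested genes in each library on a log axis, grouped by role. Circles are RA libraries, drawn above the squares of the vehicle libraries. Levels run from under 1 CPM for Nlrc3 and Nlrp10 to 381 CPM for Nlrp6, and most genes overlap between the groups.

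Levels of different genes were compared as CPM per kilobase of exon. By this measure Nlrp6, Gsdmd, Casp8 and Casp1 came highest in vehicle libraries. The lengths are those of GENCODE M21, which can differ from the gene models counted. For Pycard that length is 3800 bases, longer than the whole span counted (127992103 to 127993867 on chromosome 7). Its 21.3 ± 2.36 CPM per kilobase with vehicle is thus too low, and its place in this order is not known. Nlrp6 had 63.4 ± 7.78 CPM per kilobase with RA and 69.9 ± 5.35 with vehicle, and Gsdmd had 63.7 ± 5.99 with RA and 62.2 ± 1.75 with vehicle (SD, n = 3 each). Casp8 had 52.4 ± 3.72 CPM per kilobase with RA and 46.6 ± 3.75 with vehicle, and Casp1 had 41.2 ± 2.66 with RA and 42.2 ± 3.00 with vehicle. Among the NAIP genes, the order of the top 2 differed between the groups. Naip1 had 50.9 ± 3.09 CPM per kilobase with RA and 31.7 ± 1.57 with vehicle, and Naip6 had 30.2 ± 3.15 with RA and 37.6 ± 1.78 with vehicle. The Toll-like receptors lay far below. Tlr3 had 9.14 ± 0.494 CPM per kilobase with RA and 5.97 ± 0.917 with vehicle, Tlr4 had 7.65 ± 0.576 with RA and 6.24 ± 0.305 with vehicle, and Tlr5 had 0.231 ± 0.0604 with RA and 0.339 ± 0.0958 with vehicle.

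Beyond these genes, 63 rows of the same pathways were examined, of which 54 were tested. With RA 8 were higher (14.8%, against 5.37% of all tested rows) and 1 was lower (1.85%, against 4.09%). The median log2 fold change was 0.06, against −0.01 over all tested rows. The largest change among the called genes was in Il1rn, the antagonist of the interleukin-1 receptor. It had 302, 263 and 260 CPM with RA, against 198, 154 and 122 CPM with vehicle (log2 fold change 0.80, SE 0.13, adjusted p = 0.000966). The groups were well apart, although the vehicle libraries spread widely.

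Of the NF-κB genes on the list, Nfkbia, Relb and Birc3 were called. Nfkbia, which encodes the inhibitor IκBα and is itself an NF-κB target, had 197, 186 and 185 CPM with RA, against 143, 147 and 141 CPM with vehicle (log2 fold change 0.40, SE 0.06, adjusted p = 0.000580). Relb, a subunit of the alternative NF-κB pathway, had a log2 fold change of 0.27 (adjusted p = 0.0256), and Birc3, a ubiquitin ligase of the pathway, one of 0.34 (adjusted p = 0.0368). Tnfaip3, which encodes the inhibitor A20 and is also an NF-κB target, was not called (log2 fold change 0.01, adjusted p = 0.947). The other inhibitors Nfkbib, Nfkbie, Tnip1 and Cyld were not called, nor were the subunits Nfkb1, Nfkb2 and Rela or the kinase genes Chuk, Ikbkb, Ikbkg and Ikbke. Among these uncalled genes, Nfkbie, Ikbkg, Ikbkb and Tnip1 had all RA libraries above all vehicle libraries, and the rest overlapped. Nfkbie had a log2 fold change of 0.47 (adjusted p = 0.0734) and Ikbkg one of 0.19 (adjusted p = 0.0851). Tollip and Sigirr, inhibitors of Toll-like receptor signalling, had log2 fold changes of 0.05 and 0.15 and were not called either.

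Of 3 chaperones of the Toll-like receptors on the list, 2 were higher with RA, where 5.37% of all tested rows were called higher. The third, Cnpy3, was not called (log2 fold change 0.00, adjusted p = 0.985). Unc93b1, which carries TLR3 and other receptors to endosomes, had 46.3, 49.5 and 43.9 CPM with RA, against 32.4, 36.9 and 36.1 CPM with vehicle (log2 fold change 0.40, SE 0.08, adjusted p = 0.00644). Hsp90b1, the endoplasmic reticulum chaperone needed to fold most Toll-like receptors, had a log2 fold change of 0.26 (adjusted p = 0.0297). Trim25, a ubiquitin ligase that acts on RIG-I, had one of 0.32 (adjusted p = 0.00293). In the libraries of both groups these genes did not overlap.

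Of the partners of the NLRP3 inflammasome, Nek7 was the called gene that was lower with RA. It had 30.2, 34.1 and 28.5 CPM with RA, against 46.5, 40.7 and 39.3 CPM with vehicle (log2 fold change −0.45, SE 0.09, adjusted p = 0.00679). Txnip, which is reported to bind NLRP3, had a log2 fold change of 0.26 (adjusted p = 0.0116). Il18, a cytokine matured by caspase-1, had 14.2, 10.0 and 14.9 CPM with RA, against 11.9, 10.5 and 10.6 CPM with vehicle, and it was not called (log2 fold change 0.26, adjusted p = 0.365). Il1b had 1 read in each group. The calls of Birc3 and Hsp90b1 were each lost without 1 of 4 libraries (RA library 1 or 2, vehicle library 2 or 3), those of Relb without RA library 1 or vehicle library 1 or 2, and those of Txnip without RA library 1 or vehicle library 3. Their adjusted p-values then ran up to 0.152 for Birc3, 0.138 for Hsp90b1, 0.129 for Relb and 0.0658 for Txnip. Without RA library 1 the count of higher pathway genes was 4, and without vehicle library 2 or vehicle library 3 it was 5.

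**Figure D5:**
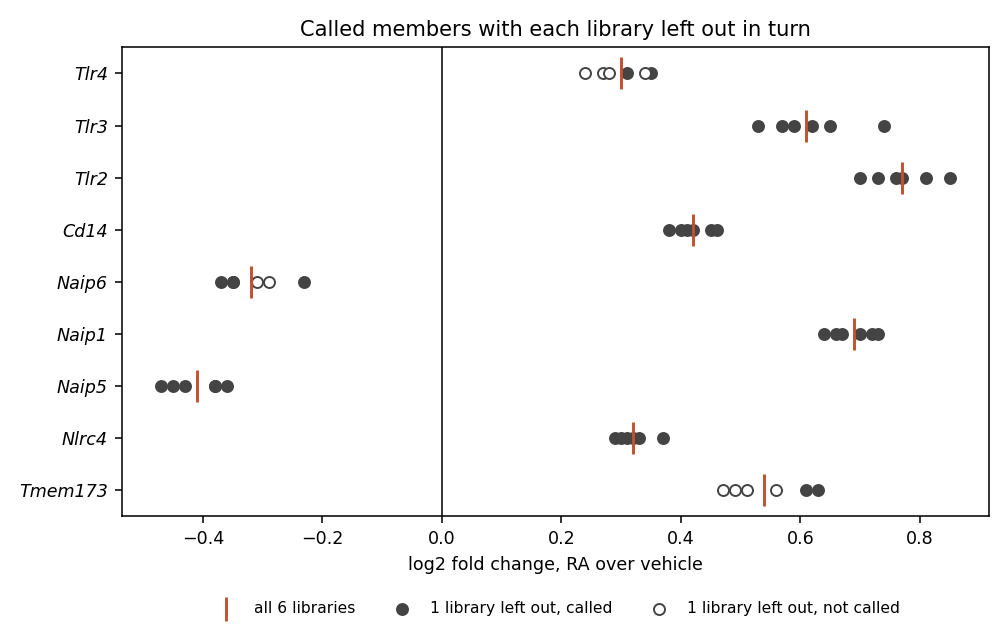
The 9 called genes with each library left out in turn. The bar is the log2 fold change from all 6 libraries, and each circle the value with 1 library left out, filled where the gene was still called and open where it was not. Tlr4 and Tmem173 each lost the call without any of 4 libraries and Naip6 without either of 2, while Naip1, Naip5, Tlr2, Tlr3, Cd14 and Nlrc4 kept it in all 6 cases.

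Across libraries left out, the count of genes called higher ran between 5 and 11 and that of genes called lower between 1 and 3. Without RA library 3 it was 11 higher and 3 lower, with Aim2, Pycard, Tirap and Nlrp10 added to the higher genes and Nlrc3 to the lower ones. Without vehicle library 1 or vehicle library 2 it was 1 lower. When library 3 of both groups was left out, 11 genes were called, of which 8 were among the original 9. In the authors' deposited table, which covers all 21534 rows, 7 of the 61 genes had an FDR under 0.05, against 5.44% of all rows. They were Naip1, Tlr3, Tlr2, Nlrc4 and Cd14 on the higher side and Naip5 and Naip6 on the lower side. The authors' deposited table gives Tmem173 an FDR of 0.0516 and Tlr4 one of 0.0600.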

How the data were processed

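Directional polyA RNA-seq was made from 6 organoid libraries, per the labels' protocols. The authors deposited 1 table of raw counts by gene and library, per the file headers, with their own p-value, FDR and log2 fold change from DESeq. The build was mm10, per the submitters' processing notes. The sources used here do not give the aligner, the annotation, the strand setting or how reads with several matches were counted.

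Counts were analysed with edgeR 4.0.16 (R 4.3.3). The default filterByExpr step kept 13700 rows, which hold 99.89% or more of every library's reads, and scaling was by TMM. The quasi-likelihood fit took all 6 libraries with treatment alone as a term (glmQLFit, glmQLFTest, two-sided) and p-values were adjusted by Benjamini-Hochberg over all rows tested, with a threshold of 0.05. The biological coefficient of variation was 7.81%. The standard error comes from the test's F statistic. The steps were tested on simulated data. Libraries of 1 group differed by more than sampling noise (chi-square per row 3.96 to 10.5), so none was counted as a repeat of another.

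The 61 genes and the lists were chosen with earlier results of these data known. Named genes are all called ones, those tested of the 61 whose libraries do not overlap, and a set taken for their known roles. Of the pathway list they are the called ones with Il18, Tollip, Sigirr and Tnfaip3. Others were named after their values were seen. Exon lengths, shared stretches and opposite-strand overlaps come from GENCODE M21 (GRCm38), in which all 61 gene IDs were found. Promoters are from RefSeq GRCm38.p6, with a window for 46 of the 61 genes used here. Alternatives were other size factors, other filters, DESeq2 1.42.0, limma-voom (limma 3.58.1), a replicate block and leaving out libraries.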

Additional observations from a re-analysis of the deposited data

How the results depend on the processing

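Of the 9 calls, Naip1, Naip5, Tlr2, Tlr3, Cd14 and Nlrc4 held under all 13 alternatives run. The 9 calls held with other size factors, a filter of at least 10 counts, DESeq2 and limma-voom. Without a filter on low counts Pycard and Tirap were added. The median log2 fold change of the genes was 0.11 over the 37 tested, and −0.01 under DESeq2 and −0.00 without a filter, both over all 61. At these depths, changes of the 24 genes not tested could not be measured.

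With the replicate block, 12 genes were called higher (Aim2, Casp8, Nlrp10, Pycard and Tirap added), and over all rows 1224 higher and 1052 lower. Libraries of the same number correlated in their deviations at 0.128, 0.0975 and 0.257, and each library correlated best with its own number, which is a hint from the data and not the design, so the pairing was not used. Leaving out libraries, in part chosen after seeing the data (library 3 of both groups), gave 5 to 11 genes called higher and 1 to 3 lower, 443 to 978 rows higher and 289 to 787 lower over all genes, and 4 to 8 pathway genes higher.

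Of 546 alternative values for 42 named genes, 496 kept direction and call, 24 lost the call, 11 gained it and 15 changed sign. The sign changes were in genes not called, and the cause was not tested. Over libraries left out, log2 fold changes ran from −0.09 to 0.022 for Casp1, −0.029 to 0.1 for Gsdmd, −0.036 to 0.26 for Myd88, −0.072 to 0.082 for Naip2, −0.0017 to 0.26 for Nlrx1, −0.23 to 0.56 for Nod2, −0.29 to 0.011 for Ripk2, −0.028 to 0.061 for Tnfaip3 and −0.06 to 9.9e-05 for Traf6.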
